A study of Ovis aries with 7 samples.

Results

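The expression of 10 genes that hold an egg in meiotic arrest or drive entry into and exit from M phase was followed in 8-cell embryos of the sheep, Ovis aries. They are the kinase genes MOS, WEE2, AURKC and CDK1, the cyclin genes CCNB1 and CCNB2, the phosphatase gene CDC25B, and the regulators FBXO43, FBXO5 and CDC20 of the anaphase-promoting complex. Members were chosen by gene name, and all 10 had a row among the 31304 rows of the expression table. Embryos came from in vitro fertilization (IVF, 3 libraries) or, in the other arm of the design, from nuclear transfer (SCNT, 4 libraries), where the egg's chromosomes are removed and a somatic cell supplies the nucleus. No further treatment, genotype, breed or donor cell is named for either group. Only the IVF libraries were analysed here, because the names of the other 4 columns of values match no label, so no SCNT value and no difference between SCNT and IVF embryos is given. The series title asks how unevenly cloned embryos are reprogrammed, and what follows is the level and spread of these genes in fertilized embryos alone.

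A mammalian egg waits for sperm in metaphase of its second meiotic division. CDK1 bound to a B-type cyclin is the kinase that drives M phase, and the arrest holds because the anaphase-promoting complex (APC/C), a ubiquitin ligase that has cyclin B degraded, is kept inactive. MOS acts through MAP kinase, and FBXO43 (also called EMI2) acts on the complex itself. Fertilization ends this arrest, and stored maternal RNA is then degraded while the embryo starts its own transcription and goes on dividing. CDK1, CCNB1, CCNB2, CDC20 and FBXO5 also serve ordinary mitotic cycles, whereas MOS, WEE2 and FBXO43 are known mainly from germ cells.

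Levels are TPM, a measure of transcript abundance that scales for gene length and for the total of the library, so that genes can be compared with each other. Values are given in the order of IVF replicates 1, 2 and 3, and then as mean ± SD with n = 3. TPM keeps no sequencing depth, which leaves the depth unknown, and neither intervals nor floors are given. These are whole-embryo RNA samples, in which fewer cells of a type and less RNA per cell cannot be told apart. Nothing in the labels ties a library to its own culture or set of embryos, so the spread may be partly technical. With 3 libraries of a single group groups cannot be tested against each other, and the smallest two-sided p of an exact sign-flip test would be 0.25, so all comparisons below are descriptions.

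The libraries held from 10973 to 12246 rows at 1 TPM or more. Markers of the labelled stage were present. Of 5 early embryo markers measured, 4 were above 10 TPM in every library, among them ARGFX at 376, 1022 and 444 TPM and ZSCAN4 at 54.7, 216 and 69.3 TPM. Each of the 5 was highest in replicate 2. Of 10 oocyte markers, 8 were above 10 TPM in every library. Over all 16526 rows with a gene symbol, 3582 were at 10 TPM or more in every library. Cumulus and granulosa markers summed to 79.9, 53.7 and 45.5 TPM over 11 genes. Most of that sum was GATM at 68.5, 35.03 and 35.2 TPM and HAS2 at 9.86, 13.1 and 7.09 TPM, while FOXL2, NR5A1 and PTX3 were listed at 0 in every library, PTX3 lying wholly inside the gene VEPH1. Fibroblast markers summed to 49.1, 64.3 and 68.5 TPM over 16 genes. Most of that sum was FSTL1 at 35.2, 39.1 and 49.6 TPM and VIM at 6.48, 8.84 and 8.37 TPM, while POSTN and TWIST2 were at 0. Sperm markers summed to 10.5, 13.4 and 9.68 TPM over 10 genes, led by ODF2 at 6.65, 6.50 and 4.31 TPM, with PRM1, AKAP4 and SMCP at 0. The part of other cells in the levels below was not tested.

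All 10 members were at 1 TPM or more in every library, against 49.0% of the 16526 rows with a gene symbol. Among them, 8 reached 10 TPM in every library, FBXO43 and CDC25B being the exceptions, against 3582 of the 16526 symbol rows. The members were chosen by name with earlier results of these data known, so these shares do not set them apart from other genes. By mean level the members ran from CDK1 at the top to CDC25B at the bottom. Together they took 2227, 1646 and 1762 TPM, a mean of 1879 ± 307, which is 0.188 ± 0.0307% of a library. The sum was highest in replicate 1.

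CDK1, the catalytic subunit of the M-phase kinase, was the most abundant member. It stood at 626, 635 and 636 TPM, or 632 ± 5.72, and ranked 194, 190 and 201 among gene symbols. The 3 libraries were nearly equal in it, and 0.0867% of symbols with a mean of at least 5 TPM had a smaller SD on the log2(TPM + 1) scale. How even it was depended on the scaling. The share of symbols with a smaller SD was 0.936% without mitochondrially encoded and ribosomal protein genes, and 17.6% after rescaling by median ratios. Its coefficient of variation was 0.904% in TPM, 2.97% without mitochondrially encoded and ribosomal protein genes, and 13.5% after rescaling the libraries by their median gene ratio, where replicate 2 was the lowest.

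B-type cyclins, which activate CDK1, were also abundant. CCNB1 was at 301, 268 and 246 TPM (272 ± 28.0), and CCNB2 was at 249, 135 and 168 TPM (184 ± 58.4). CCNB1 exceeded CCNB2 in 3 of 3 libraries, by 0.60 ± 0.36 on the log2(TPM + 1) scale. CCNB3, a B-type cyclin studied mostly in meiosis, was lower at 28.1, 30.0 and 18.9 TPM, and CCNB1 exceeded it by 3.38 ± 0.26. CCNB1 made up 52.1, 61.9 and 56.8% of the summed B-type cyclin TPM. The sum of CCNB1 and CCNB2 was 0.879, 0.634 and 0.651 of the CDK1 level, so the cyclin genes together stayed below CDK1 in every library.

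MOS, the kinase that starts the MAP kinase cascade of the egg, was second by mean level and uneven. Its levels were 493, 162 and 287 TPM, or 314 ± 167. Replicate 1 was 3.04-fold above replicate 2, and 92.7% of symbols with a mean of at least 5 TPM had a smaller SD. MOS was at 0.787, 0.255 and 0.451 of the CDK1 level. The mean of 314 TPM became 225 TPM without replicate 1.

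The regulators of the anaphase-promoting complex had unequal levels. FBXO5 (EMI1), which restrains the complex in mitotic cycles, was at 291, 132 and 175 TPM (199 ± 82.1). Its paralog FBXO43, which restrains it in the egg, was at 26.9, 9.93 and 6.85 TPM (14.5 ± 10.8). FBXO43 thus made up 8.45, 6.98 and 3.76% of the pair, and lay below FBXO5 by a log2(TPM + 1) difference of -3.83 ± 0.58, in 3 of 3 libraries. Replicate 1 was the highest of the 3 libraries for both. FBXO43 had the largest coefficient of variation of the members, 74.1%, and its mean without replicate 1 was 8.39 TPM.

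CDC20 activates the same complex at the end of metaphase. It was at 134, 181 and 148 TPM (154 ± 24.1), with replicate 2 highest. FZR1, the activator used later in the cell cycle, was at 3.64, 2.76 and 4.39 TPM. CDC20 exceeded FZR1 by 5.08 ± 0.45 on the log2(TPM + 1) scale in 3 of 3 libraries. The ratio of FBXO5 to CDC20, an inhibitor of the complex over its activator, was 2.18, 0.732 and 1.18, so that FBXO5 was the higher in replicates 1 and 3 and CDC20 in replicate 2.

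AURKC, an Aurora kinase of germ cells and early embryos in the mouse, was even across libraries at 72.0, 70.5 and 65.4 TPM (69.3 ± 3.47). Its coefficient of variation was 5.01% in TPM and 12.4% after rescaling by median ratios. AURKA, the Aurora kinase of the spindle poles, was at 627, 678 and 429 TPM, and AURKC lay below it by a log2(TPM + 1) difference of -3.01 ± 0.29 in 3 of 3 libraries. AURKC made up 10.3, 9.42 and 13.2% of their sum. AURKB, the centromeric paralog, was listed at 0 in every library. In the RefSeq gene table of the ARS-UI_Ramb_v3.0 assembly the span of AURKB lies wholly inside that of BORCS6, which was at 0.521, 1.42 and 0.441 TPM, and no ratio is given against AURKB. Whether the counting of overlapping genes gave this 0 was not tested, so it does not show that the RNA was absent. None of the 10 members lies wholly inside another gene in that table.

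By mean level the members that switch CDK1 off and on, WEE2 and CDC25B, were among the 3 lowest, with FBXO43 between them. In replicates 2 and 3 FBXO43 was instead the lowest member. WEE2, the oocyte form of the inhibitory kinase, was at 28.6, 34.0 and 20.9 TPM (27.8 ± 6.60). It stood above WEE1, the somatic form, at 3.55, 9.41 and 1.56 TPM, by 2.52 ± 0.69 on the log2(TPM + 1) scale, and above PKMYT1, the membrane-bound form, at 3.44, 5.06 and 6.17 TPM, by 2.29 ± 0.60. WEE2 was the higher in 3 of 3 libraries in both comparisons, and WEE2 made up 80.3, 70.2 and 73.0% of the 3 kinases.

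CDC25B, a phosphatase that activates CDK1 and is needed to resume meiosis in mouse oocytes, was at 6.91, 18.0 and 9.54 TPM (11.5 ± 5.81), highest in replicate 2. CDC25A was at 9.58, 11.1 and 8.12 TPM and CDC25C at 5.10, 19.4 and 6.70 TPM. CDC25B differed from CDC25A by 0.15 ± 0.54 and from CDC25C by 0.24 ± 0.30 on the log2(TPM + 1) scale, each smaller than its spread and positive in 2 of 3 libraries. Without replicate 2 the difference from CDC25A was -0.11. CDC25B made up 32.0, 37.1 and 39.2% of the 3 phosphatases. CDK2, the related kinase of S phase, was at 17.8, 31.9 and 19.9 TPM, and CDK1 exceeded it by 4.75 ± 0.42 in 3 of 3 libraries.

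**Figure D1:**
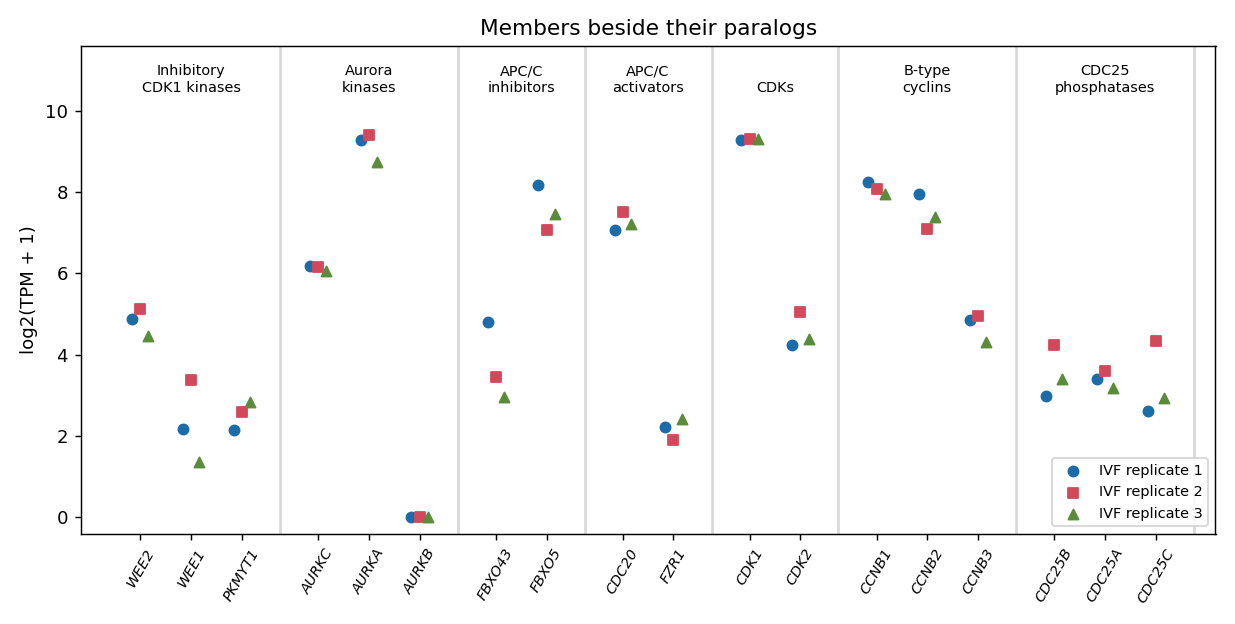
Level of each member except MOS, beside its paralogs, as log2(TPM + 1), 1 point per IVF library. CDK1, CDC20 and WEE2 lie above their paralogs in every library, AURKC lies below AURKA and FBXO43 below FBXO5, the CDC25 genes overlap, and AURKB is listed at 0.

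Ordered by mean TPM, the members ran CDK1, MOS, CCNB1, FBXO5, CCNB2, CDC20, AURKC, WEE2, FBXO43 and CDC25B. Of the 9 pairs of neighbours in that order, 5 kept it in every library, and in the same 5 the mean log2(TPM + 1) difference was larger than its SD. CDK1 lay above MOS by 1.15 ± 0.81, CCNB1 above FBXO5 by 0.52 ± 0.48, CDC20 above AURKC by 1.13 ± 0.23, AURKC above WEE2 by 1.31 ± 0.29 and WEE2 above FBXO43 by 1.08 ± 0.87. MOS and CCNB1 (0.07 ± 0.73), FBXO5 and CCNB2 (0.09 ± 0.13), CCNB2 and CDC20 (0.22 ± 0.65), and FBXO43 and CDC25B (0.20 ± 1.41) did not differ beyond their spread. The number of pairs in a single order became 8 without replicate 2, and the number above its SD became 3 without replicate 3.

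**Figure D2:**
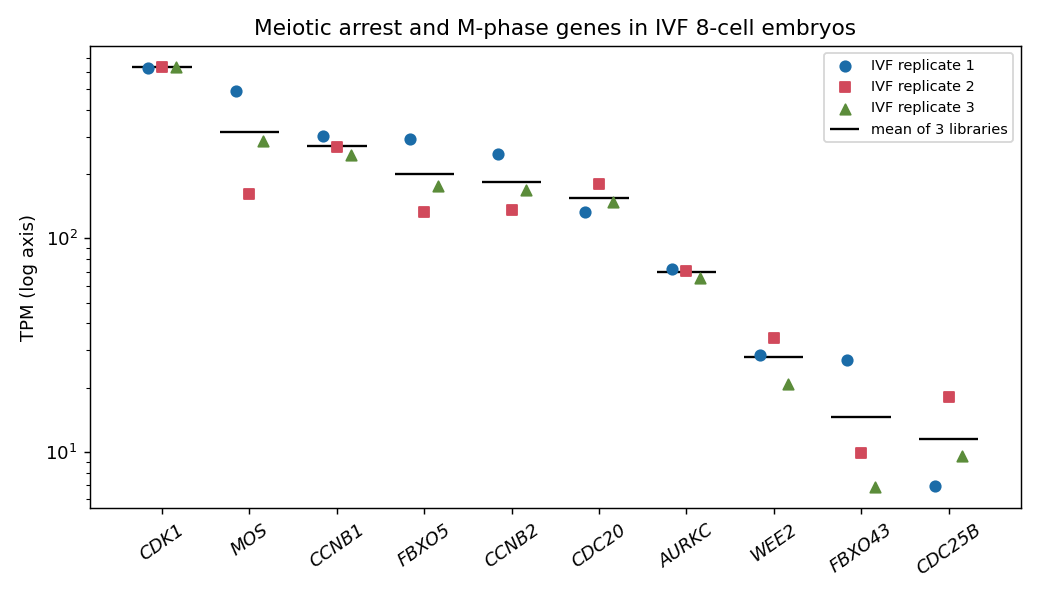
TPM of the 10 members on a log axis, 1 point per IVF library, with the mean of the 3 libraries as a line. CDK1 and AURKC are nearly level across libraries on this scale, and MOS, FBXO43 and CDC25B are spread widely.

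Each library was then set against the mean of the other 2 on the log2(TPM + 1) scale, over the 6978 rows whose mean reached 5 TPM. Replicate 1 was at least 2-fold above the others for 2 of 10 members, MOS (1.19) and FBXO43 (1.59), against 5.65% of all rows. It was at least 2-fold below for 0 of 10, against 7.71% of rows. Replicate 2 was at least 2-fold above for 1 member, CDC25B (1.06), against 12.8% of rows, and below for 1, MOS (-1.21), against 3.85%. Replicate 3 was at least 2-fold above for 0 members, against 0.817% of rows, and below for 1, FBXO43 (-1.15), against 2.62%. With only 10 members, counts of 0 to 2 are too small to be told from these shares.

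FBXO5 and CCNB2 moved in the direction of MOS by less. In replicate 1 they were 0.93 and 0.72 above the other libraries, and in replicate 2 they lay at -0.77 and -0.59. The median member was at 0.16, -0.01 and -0.14 in replicates 1, 2 and 3, beside -0.07, 0.19 and -0.12 for the median of all rows. Rescaling by median ratios shifted the libraries by 0.07, -0.25 and 0.14 (log2). Set relative to the median gene, MOS was at 1.25 in replicate 1 and -1.40 in replicate 2, FBXO43 at 1.66 in replicate 1 and -1.03 in replicate 3, and CDC25B at 0.87 in replicate 2. After that rescaling CDC25B (0.73 in replicate 2) and FBXO43 (-0.95 in replicate 3) were no longer 2-fold apart, FBXO5 was (1.05 in replicate 1 and -1.12 in replicate 2), and small differences of CDK1, AURKC, CDC20, CCNB1, CCNB2 and FBXO5 changed sign in 1 or 2 libraries.

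**Figure D3:**
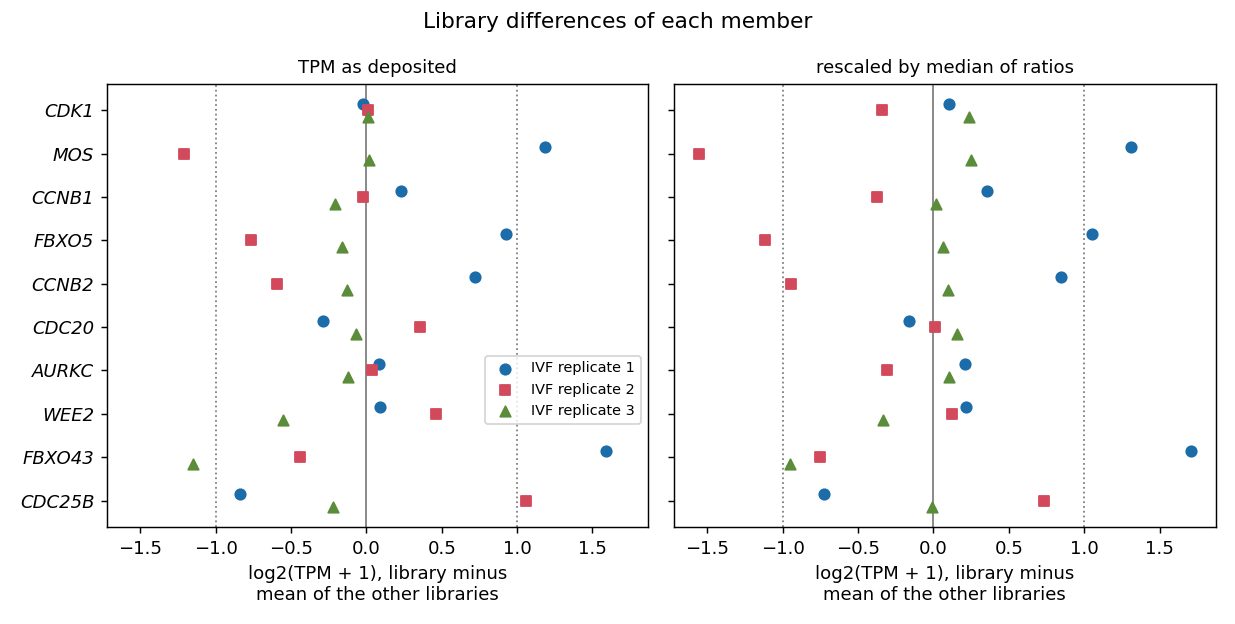
Difference of each IVF library from the mean of the other libraries for each member, on the log2(TPM + 1) scale, from TPM as deposited (left) and after rescaling by median ratios (right). Dotted lines mark 2-fold, and MOS in replicates 1 and 2 and FBXO43 in replicate 1 lie beyond them in both panels.

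Likeness between members was measured as the root mean square difference of their log2(TPM + 1) values after each gene was centred on its own mean, over 3 libraries. AURKC and CDK1 differed by 0.07, FBXO5 and CCNB2 by 0.11, and MOS and FBXO5 by 0.21, while MOS and CDC25B, which were high in different libraries, differed by 1.17. The measure is also small where both genes hardly vary, as with AURKC and CDK1, which went opposite ways in replicates 1 and 3. Against the other libraries AURKC was at 0.08 in replicate 1 and -0.12 in replicate 3, and CDK1 at -0.02 and 0.01. In replicate 2 AURKC was at 0.04 and CDK1 at 0.01. After rescaling by median ratios both genes were above the other libraries in replicates 1 and 3 and below them in replicate 2. Of 45 pairs, 8 lay above and below their own means in the same libraries, and 15 did after rescaling by median ratios. With 3 libraries only a few such patterns exist, and pairs of other genes were not counted. These counts therefore do not set the members apart from other genes. Outside the members, the symbols nearest to MOS were YIF1B (41.7, 13.2 and 24.4 TPM), SOCS1 (67.5, 21.3 and 39.1 TPM) and DERL3 (13.4, 3.82 and 7.72 TPM), at differences of 0.01, 0.01 and 0.02. These distances depended on the pseudocount, and with 5 in place of 1 they were 0.09, 0.04 and 0.21. As many as 42 of 5764 symbols lay within 0.1 of MOS, so 3 libraries single out no gene.

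Oocyte markers did not share a single order of libraries. BTG4, an adaptor of RNA decay, at 504, 272 and 329 TPM, and OOEP, of the subcortical maternal complex, at 418, 203 and 312 TPM, were highest in replicate 1, where MOS was highest. The zona pellucida gene ZP2, at 124, 353 and 124 TPM, and the growth factor gene GDF9, at 67.5, 190 and 60.8 TPM, were highest in replicate 2, where MOS was lowest and where the early embryo markers were highest. The part of these differences between libraries in the levels of MOS was not tested.

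Other genes of the same pathways were read from 4 lists of 73 genes in all. Upstream and downstream of MOS, 12 of 19 genes were at 1 TPM or more in every library, with a median of 3.92, 4.04 and 3.19 TPM, against 1.46, 1.74 and 1.32 TPM for all symbols. Abundant among them were CPEB1, which binds stored mRNAs and controls their translation, at 363, 104 and 152 TPM, and the mitotic kinase PLK1 at 28.9, 15.8 and 26.8 TPM. CPEB1 was highest in replicate 1 and lowest in replicate 2, as MOS was. MAP2K1, the kinase between MOS and MAP kinase, was at 21.7, 22.3 and 14.3 TPM. MAPK3, a MAP kinase gene, averaged 4.16 ± 1.03 TPM and lay below MOS in every library.

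Of the CDK1 regulators, 16 of 17 measured genes were at 1 TPM or more in every library, with a median of 17.8, 30.0 and 18.9 TPM. They were led by the CDK-binding subunits CKS2 (43394 ± 5000.5 TPM) and CKS1B (2694 ± 525 TPM) and by the cyclin gene CCNA2 at 236, 304 and 245 TPM. MASTL, the kinase that holds back the phosphatase opposing CDK1, was at 15.1 ± 1.56 TPM.

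In the Aurora list, 8 of 9 measured genes were at that level, with a median of 56.8, 67.5 and 53.6 TPM. AURKA led it, followed by BIRC5, a subunit of the chromosomal passenger complex, at 187, 313 and 190 TPM, and the cohesin protector SGO1 at 213, 99.4 and 117 TPM. AURKB was the gene listed at 0, and without it the mean median of 59.3 TPM became 81.1 TPM.

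Among genes of the anaphase-promoting complex and mitotic exit, 23 of 26 were at 1 TPM or more in every library, with a median of 9.87, 10.8 and 7.47 TPM. UBE2C, the ubiquitin-conjugating enzyme of the complex, was at 7467, 5148 and 7469 TPM, the spindle checkpoint gene MAD2L1 at 2262, 998 and 1511 TPM, and securin, PTTG1, at 644, 1123 and 437 TPM. The subunit genes ANAPC11 and ANAPC15 were listed at 0 in every library, and both lie wholly inside another gene in the RefSeq table, ANAPC11 inside NPB and ANAPC15 inside TOMT. As for AURKB, the 0 does not show absence of RNA, and the part of the overlap was not tested. CCNA1, of the CDK1 list, also lies wholly inside another gene and was at 4.06, 6.29 and 4.002 TPM. The share of genes at 1 TPM or more in these lists stood beside 49.0% over all symbols.

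**Figure D4:**
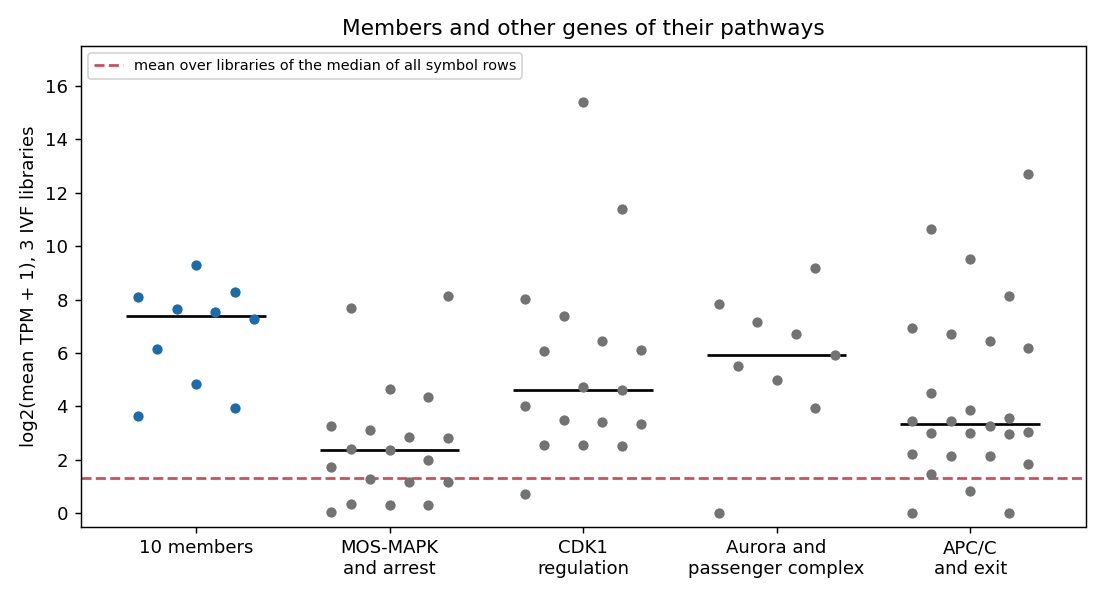
Mean level of each gene as log2(mean TPM + 1) over 3 IVF libraries, for the 10 members and the 4 pathway lists. Black lines mark the median of each list on that scale. The dashed line takes the median TPM of all symbols in each library, averages it over the libraries, and shows it as log2(TPM + 1). The members span 11.5 to 632 TPM, and AURKB, ANAPC11 and ANAPC15 lie at 0.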

How the data were processed

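PolyA RNA of sheep 8-cell embryos was amplified by 20 PCR cycles and sequenced as paired 150-base Smart-seq2 reads, per the labels' protocols. The authors deposited TPM for 31304 rows. Trimming used fastp 0.23.4 and alignment HISAT2 2.2.1, per the submitters' processing notes. For the build, the annotation and the read counter, no name was given in the sources used here. Because TPM is relative, more RNA of abundant genes lowers all others. Columns were assigned by name. The 3 IVF columns were used and 4 columns of per-sample values that match no sample label were not. Row names were kept, and 28875 matched the RefSeq table of ARS-UI_Ramb_v3.0, used for names and for genes lying inside another gene. Sequences and coordinates are not given.

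Here log2(TPM + 1), means, SDs, ratios and percentages were computed with Python 3.11.15, numpy 2.4.6 and pandas 2.3.3. Counting of 2-fold library differences was tested on simulated data. The members, lists and settings were chosen with earlier results of these data known. Named genes were all members, their paralogs, the 3 most abundant members of each pathway list, members listed at 0, and the 3 genes nearest to MOS, except that a gene this rule names in a pathway list is not reported here. Marker genes, MAP2K1, MAPK3 and MASTL, and the ratios and shares within families, were picked with their values known. Alternatives tried were other pseudocounts, filters, detection thresholds and scalings, and leaving out each library. PPP2R2D, HASPIN, CYP19A1, LEUTX, TPRX1 and H1FOO, under either of its symbols, were not analysed here.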

Additional observations from a re-analysis of the deposited data

How the results depend on the processing

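No paired analysis was possible because only IVF libraries were analysed. Of 250 values under settings that keep all libraries, 215 stayed within 1 SD of the libraries or, where no SD applies, within 1.5 times, 35 moved further and 0 changed sign. Some of these values could not move, as rescaling leaves ratios and shares within a library unchanged and filters leave a gene's own SD unchanged. Only the paralog differences could change sign, and the library differences of single members were not among these values. With a pseudocount of 5, WEE2 over WEE1 was 1.80 and CDC20 over FZR1 4.20 (log2), and the counts of members 2-fold above in replicate 2 and 2-fold below in replicate 3 became 0, as a larger pseudocount shrinks low genes. Limited to means of at least 50 TPM, which drops 3 members, those 2 counts were 0, the count above in replicate 1 was 1, and 3 members, against 5, had an SD above that of the median symbol. With detection at 5 TPM, 5 genes of the MOS list passed, as the threshold sets. After median-ratio scaling the counts were 0 above and 2 below in replicate 2 and 0 below in replicate 3, and 15 pairs of members shared their libraries. Without mitochondrially encoded and ribosomal protein genes, which raises all other values, the members summed to 2257 TPM, and the medians of the MOS, Aurora and APC/C lists were 4.48, 71.5 and 11.3 TPM. Leaving out genes wholly inside another gene, chosen after seeing the data, gave 81.1 TPM for the Aurora list.

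With each library left out in turn, CDC25B minus CDC25A ranged from -0.11 to 0.43. Members at least 2-fold above the others numbered 1 to 3 in replicate 1 and 0 to 1 in replicate 2. Members at least 2-fold below numbered 0 to 1 in replicate 1, 0 to 3 in replicate 2 and 0 to 1 in replicate 3. Neighbours in a single order numbered 5 to 8, neighbours differing beyond their SD 3 to 6, and pairs sharing their libraries 21 to 24, since 2 libraries leave fewer patterns. Depth is unknown, so low values such as those of FBXO43, CDC25B and WEE1 cannot be told from sampling loss.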
